A study of Homo sapiens with 12 samples.

Results

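The interferon-stimulated and antigen presentation genes studied here are a list of 42 genes, chosen by name with earlier results of these data known. A probe that was detected on at least 2 arrays represented 34 of the 42, out of 13951 genes with such a probe. RNA levels had been measured on Illumina bead arrays in H9 and CT2, a pair of human embryonic stem cell lines. In each line 1 group carried a knockdown of JMJD1C, 1 group a mismatch shRNA and 1 group was untreated, which gave 6 groups, 2 arrays per group and 12 arrays. The mismatch shRNA is a short hairpin RNA that serves as the control of the knockdown. JMJD1C encodes a nuclear protein of the jumonji family of histone demethylases. The labels name no hairpin sequence, clone or delivery vector, no interferon or other cytokine, and no origin of the replicates, so each p-value reflects the spread between the arrays of a group, and that spread may be technical.

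Interferons are secreted cytokines that signal through cell surface receptors, JAK kinases and STAT proteins. Type I interferons lead to the ISGF3 complex, which includes STAT2 and IRF9 and binds the interferon-stimulated response element, or ISRE, in the promoters of antiviral genes. Interferon gamma acts through the gamma-activated site, or GAS, and raises the genes of the class I antigen presentation pathway. That pathway cuts proteins in the immunoproteasome, carries the peptides into the endoplasmic reticulum through TAP and displays them on class I HLA molecules with beta-2 microglobulin. Human embryonic stem cells are known for a weak interferon response and low class I HLA display, while some antiviral genes such as the IFITM genes are expressed in them without interferon.

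The 42 genes comprised 18 antiviral effectors, 3 genes of the ISG15 system, 3 RNA sensors, 4 transcription factors, 2 PARP genes, 5 other IFI genes and 7 antigen presentation genes. Chromosome 6 held 6 of them, in the HLA region, and chromosome 12 held 5, of which 3 are the neighbouring genes OAS1, OAS3 and OAS2. Promoters of members that the results turn on are printed next, from RefSeq on build GRCh38.p14, to show where they match the response element cores. Each run is the 250 bases before the annotated gene start, 5′ to 3′ on the strand of the gene. Capitals mark every match to the ISRE core, GAAA, any 2 bases and GAAA again, on either strand (TTTC, any 2 bases and TTTC on the other one), or to the GAS core TTCNNNGAA, which reads alike on both strands. HERC5 (chr4:88456869-88457118, plus strand) encodes the main ligase of the ubiquitin-like protein ISG15. IFI6 (chr1:27672193-27672442, minus strand) encodes a small membrane protein induced by interferon. ISG15 (chr1:1013247-1013496, plus strand) encodes the modifier itself, and IFITM3 (chr11:320861-321110, minus strand) encodes a membrane protein that blocks virus entry. HLA-B (chr6:31357180-31357429, minus strand) encodes a class I heavy chain and PSMB9 (chr6:32853942-32854191, plus strand) an immunoproteasome subunit. IRF1 (chr5:132490774-132491023, minus strand) encodes a transcription factor induced through a GAS element.
HERC5: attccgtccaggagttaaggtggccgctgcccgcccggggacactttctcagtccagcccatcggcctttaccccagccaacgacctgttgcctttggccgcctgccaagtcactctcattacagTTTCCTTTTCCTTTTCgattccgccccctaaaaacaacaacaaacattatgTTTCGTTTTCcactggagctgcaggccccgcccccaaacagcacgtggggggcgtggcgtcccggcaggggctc
IFI6: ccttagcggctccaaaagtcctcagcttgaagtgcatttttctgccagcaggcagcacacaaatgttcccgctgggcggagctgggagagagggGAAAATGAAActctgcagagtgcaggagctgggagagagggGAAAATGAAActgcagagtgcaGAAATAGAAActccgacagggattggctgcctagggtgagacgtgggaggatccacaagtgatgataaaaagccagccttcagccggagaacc
ISG15: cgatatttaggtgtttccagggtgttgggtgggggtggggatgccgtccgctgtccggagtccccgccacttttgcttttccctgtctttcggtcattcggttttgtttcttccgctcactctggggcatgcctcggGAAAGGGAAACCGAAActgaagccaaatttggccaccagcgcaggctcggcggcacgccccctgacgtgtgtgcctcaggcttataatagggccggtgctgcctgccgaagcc
IFITM3: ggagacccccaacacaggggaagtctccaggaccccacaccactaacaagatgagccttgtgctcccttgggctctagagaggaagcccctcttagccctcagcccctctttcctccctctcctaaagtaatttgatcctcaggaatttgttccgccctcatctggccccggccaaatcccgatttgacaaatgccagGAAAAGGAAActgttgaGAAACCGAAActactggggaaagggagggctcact
HLA-B: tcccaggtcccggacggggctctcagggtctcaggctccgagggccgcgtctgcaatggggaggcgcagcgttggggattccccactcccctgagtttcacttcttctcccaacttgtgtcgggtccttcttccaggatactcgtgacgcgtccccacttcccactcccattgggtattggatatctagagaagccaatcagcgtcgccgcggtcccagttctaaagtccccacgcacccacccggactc
PSMB9: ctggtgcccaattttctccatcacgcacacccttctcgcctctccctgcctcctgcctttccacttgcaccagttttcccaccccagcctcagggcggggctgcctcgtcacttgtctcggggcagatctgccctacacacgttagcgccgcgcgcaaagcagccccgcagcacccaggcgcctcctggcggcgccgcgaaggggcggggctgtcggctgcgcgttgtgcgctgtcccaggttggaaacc
IRF1: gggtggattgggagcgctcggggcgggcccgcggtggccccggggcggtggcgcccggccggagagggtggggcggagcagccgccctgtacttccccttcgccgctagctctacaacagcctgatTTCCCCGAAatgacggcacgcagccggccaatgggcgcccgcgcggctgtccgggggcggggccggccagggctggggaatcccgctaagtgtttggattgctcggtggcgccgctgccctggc

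The window of HERC5 held 3 ISRE cores, of which a pair overlapped, and that of IFI6 held 3. ISG15 held 2 overlapping ISRE cores and IFITM3 held 2. IRF1 held 1 GAS core and no ISRE core, and HLA-B and PSMB9 held neither. A RefSeq window of 300 bases, running 250 bases before to 50 bases after the gene start, was found for 33 of the 42 genes. An ISRE core lay in 22 of these 33, or 66.7%, against 996 of the 27305 windows in the table, or 3.65%. A GAS core lay in 9 of the 33, or 27.3%, against 2152 of 27305, or 7.88%. By role, an ISRE core was found in 11 of 13 antiviral effectors, in 4 of 5 other IFI genes and in both windows of the ISG15 system, but in 2 of 6 antigen presentation genes, TAP1 and B2M. None of the 3 windows of transcription factors held an ISRE core, and 2 of them held a GAS core. PARP9, PSMB8, HLA-C, STAT2 and XAF1 held neither. The 2 kinds of core overlapped in IFITM1, BST2 and IFI27. A match says only that these letters lie in the window. A window without a match may still hold a response element, since sites that depart from these letters were not counted. No entry was matched for IFIT2, IFITM2, MX2, OAS2, OASL, USP18, DHX58, IRF7 and HLA-E.

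**Figure D1:**
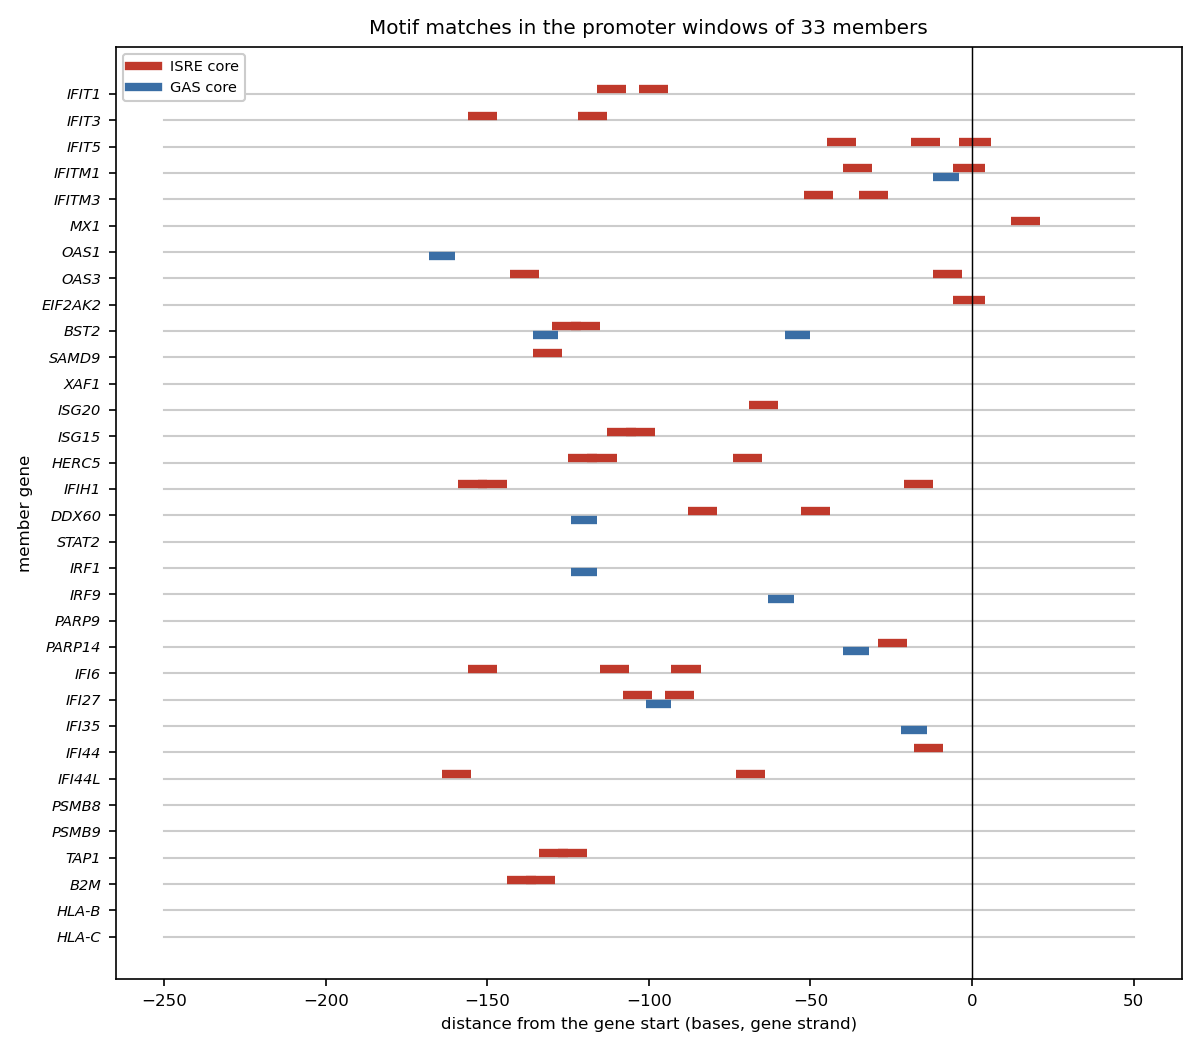
Matches to the ISRE core (red, drawn above each line) and to the GAS core (blue, below it) in the 33 promoter windows. The horizontal axis is the distance from the gene start in bases on the strand of the gene, from 250 bases before to 50 bases after, and each row is 1 member. ISRE cores appear in 22 rows and GAS cores in 9.

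Between 44.7% and 47.3% of the 47314 probes were detected on each array, with a median intensity before normalisation of 150 to 197. The targeted gene was lower in the knockdown: JMJD1C read 10.58 and 10.68 in H9 knockdown, 11.93 and 11.49 in H9 mismatch, and 12.47 and 11.51 in H9 untreated, as normalised log2 intensity. The CT2 values of JMJD1C were 10.75 and 10.69 with the knockdown, 12.04 and 12.36 with the mismatch shRNA, and 11.45 and 11.92 untreated. The knockdown arrays lay below all others, at 41.1% of the mismatch level as the mean of both lines (log2 difference -1.28 ± 0.19 SE, limma adjusted p = 7.26e-04). Of 12 embryonic stem cell markers 11 were detected, with TDGF1 as the exception. Of 12 leukocyte markers 7 were detected, and CD3E, CSF1R, TYROBP and SPI1 were among those that were not. CT2 mismatch replicate 2 stood apart. Its correlation with its own replicate was 0.9675 across genes with a detected probe, below the 0.9715 it had with H9 untreated replicate 1. On the first principal component it lay at -20.81, among the H9 arrays (-44.11 to -5.35) and away from the other CT2 arrays (17.3 to 40.61). H9 untreated replicate 1 lay at -44.11, the end of the H9 range. Some of the results that rest on these 2 arrays are therefore given with and without them. In bulk RNA fewer cells of a type and less RNA per cell cannot be told apart.

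Of the 42 genes 8 gave no level. STAT2 had no probe that the annotation names, and IFIT2, IFIT5, OAS2, OASL, SAMD9, IFI27 and IFI44 had probes but none detected on 2 arrays. IFI27 was detected on 1 array and the other 6 on none. OAS2 and OASL belong to the oligoadenylate synthetase family, and IFIT2 and IFIT5 to the IFIT family. Of the 34 measured genes 26 had a detected probe on all 12 arrays. The others were PSMB9 on 5 arrays, IFI44L on 9, IFIT3 on 10, and OAS1, OAS3, IFIH1, DDX60 and IRF1 on 11. Normalised log2 intensities of the IFITM genes ranged over the 12 arrays from 12.16 to 13.55 for IFITM1, from 13.43 to 14.1 for IFITM2 and from 12.55 to 13.72 for IFITM3. EIF2AK2, which encodes the RNA-activated kinase PKR, ranged from 11.43 to 12.34. Intensities of different probes share no scale, so each gene is compared with itself only. The IFITM genes are related in sequence, as are HLA-B, HLA-C and HLA-E, and their probes may share signal.

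**Figure D2:**
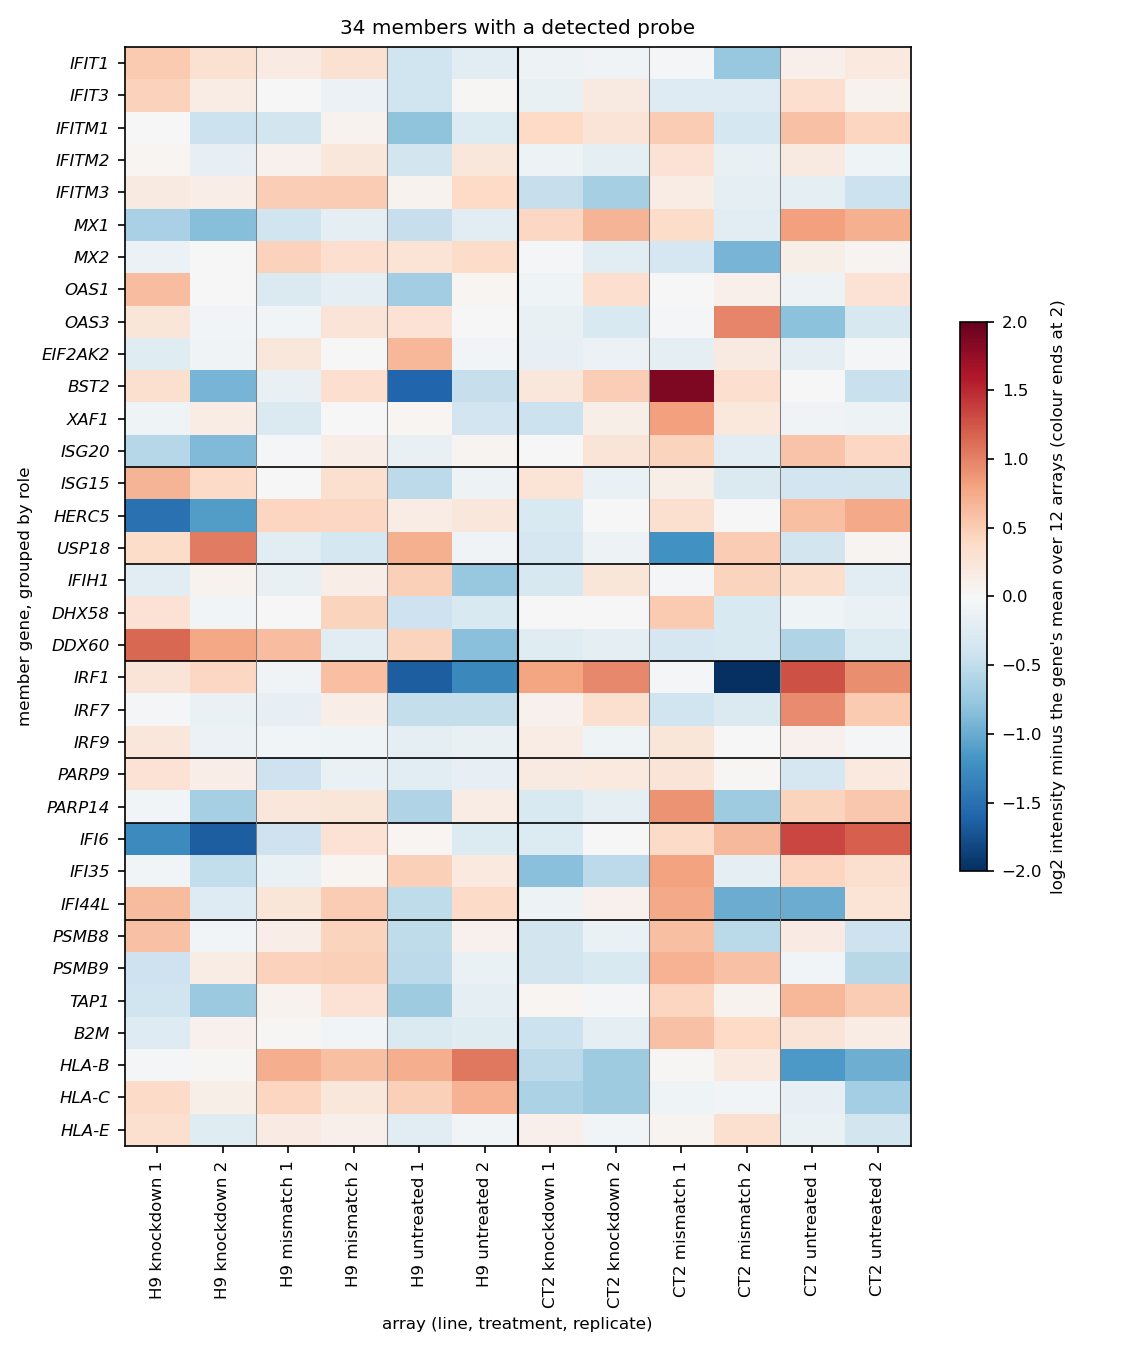
Level of the 34 measured members on each array, as normalised log2 intensity minus the mean of that gene over the 12 arrays. Columns are arrays with H9 left of CT2 and, in each line, knockdown, mismatch and untreated from left to right; rows are grouped by role with black lines between groups. HERC5 and IFI6 are lowest in the H9 knockdown columns, BST2 is highest in CT2 mismatch replicate 1, and IRF1 is lowest in CT2 mismatch replicate 2.

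The first question was which members differed between the knockdown and its hairpin control. As the mean of both lines, 5 of the 34 measured members fell with the knockdown against the mismatch shRNA and 0 rose: HERC5, IFI6, HLA-B, PSMB9 and IFITM3. That is 14.7% of the members, against 6.57% of the 13951 genes tested (3.19% higher and 3.38% lower), at a Benjamini-Hochberg adjusted p under 0.05 over all genes. HERC5 was at 49.1% of the mismatch level, IFI6 at 49.3%, HLA-B at 62% and IFITM3 at 73.2%, and PSMB9 was at least 1.5-fold lower. The median log2 difference of the members was -0.16, against 0.014 for all genes, and 21 of the 34 were negative. The other 29 did not pass. The PSMB9 probe met the detection filter through the mismatch groups, where it is high, so its difference was partly set by that filter, and without PSMB9 4 of 33 members fell, or 12.1%.

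Within the ISG15 system 1 of 3 members fell, HERC5, and the differences of the other 2, ISG15 and USP18, were positive and did not pass. HERC5 read 10.44 and 10.80 in H9 knockdown, 12.36 and 12.34 in H9 mismatch, and 12.07 and 12.15 in H9 untreated. CT2 arrays of HERC5 gave 11.62 and 11.92 with the knockdown, 12.25 and 11.94 with the mismatch shRNA, and 12.52 and 12.69 untreated. The knockdown arrays lay below both control groups in each line, by a wide gap in H9 and narrowly in CT2 against the mismatch arrays. As the mean of both lines the difference from mismatch was -1.03 ± 0.14, or 49.1% of the mismatch level (limma adjusted p = 2.78e-04). In H9 alone it was -1.73 ± 0.20, or 30.2% of the mismatch level (limma adjusted p = 7.83e-05), and in CT2 -0.33 ± 0.20 (0.369), which did not pass. The H9 response minus the CT2 response was -1.4 ± 0.28 (limma adjusted p = 0.0344), the 1 member of 34 called in this test of the difference, against 0.416% of all genes. That call ended in 8 of the 12 fits that left out 1 array, and over the 12 the value lay between -1.59 and -1.22 (limma adjusted p up to 0.253), and without the 2 arrays that stood apart it was -1.25 ± 0.28 (0.0181). ISG15, the protein that HERC5 attaches to targets, read 11.97 and 11.67 in H9 knockdown, 11.30 and 11.61 in H9 mismatch, and 10.77 and 11.18 in H9 untreated. In CT2 it read 11.56 and 11.16 with the knockdown, 11.41 and 10.99 with the mismatch shRNA, and 10.90 and 10.92 untreated. Its knockdown arrays were above its untreated arrays in H9 and in CT2, and overlapped with the mismatch arrays in CT2. The difference from mismatch was 0.26 ± 0.16 (limma adjusted p = 0.38), and that from untreated is given with the untreated comparison. USP18, the protease that removes ISG15, had a difference from mismatch of 0.56 ± 0.32 (limma adjusted p = 0.343) with values from 6 to 8.25 over the arrays, both in groups whose replicates lay far apart.

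IFI6 was the member called among the other IFI genes. It read 8.15 and 7.78 in H9 knockdown, 9.01 and 9.71 in H9 mismatch, and 9.46 and 9.15 in H9 untreated. The CT2 values of IFI6 were 9.15 and 9.43 with the knockdown, 9.81 and 10.08 with the mismatch shRNA, and 10.77 and 10.63 untreated. In each line the knockdown arrays were the lowest, and in CT2 the mismatch arrays also lay below the untreated arrays. The difference from mismatch was -1.02 ± 0.19, or 49.3% of the mismatch level (limma adjusted p = 0.00354). In H9 it was -1.39 ± 0.27 (limma adjusted p = 0.00782) and in CT2 -0.65 ± 0.27 (0.176). The mean call held in all 12 fits that left out 1 array, while the H9 call ended without H9 knockdown replicate 2 (0.146) or H9 mismatch replicate 2 (0.189). The responses of the lines differed by -0.74 ± 0.38 (limma adjusted p = 0.503), so no difference between them was shown. A second, dimmer IFI6 probe gave -0.20 (limma adjusted p = 0.704 over all probes), a smaller difference of the same sign that did not pass. With the mean of all detected IFI6 probes the H9 difference from mismatch was -0.8 and no longer passed (limma adjusted p = 0.0957). Of the other IFI genes with a level, IFI35 gave -0.61 ± 0.24 (limma adjusted p = 0.138) and IFI44L -0.04 ± 0.38.

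**Figure D3:**
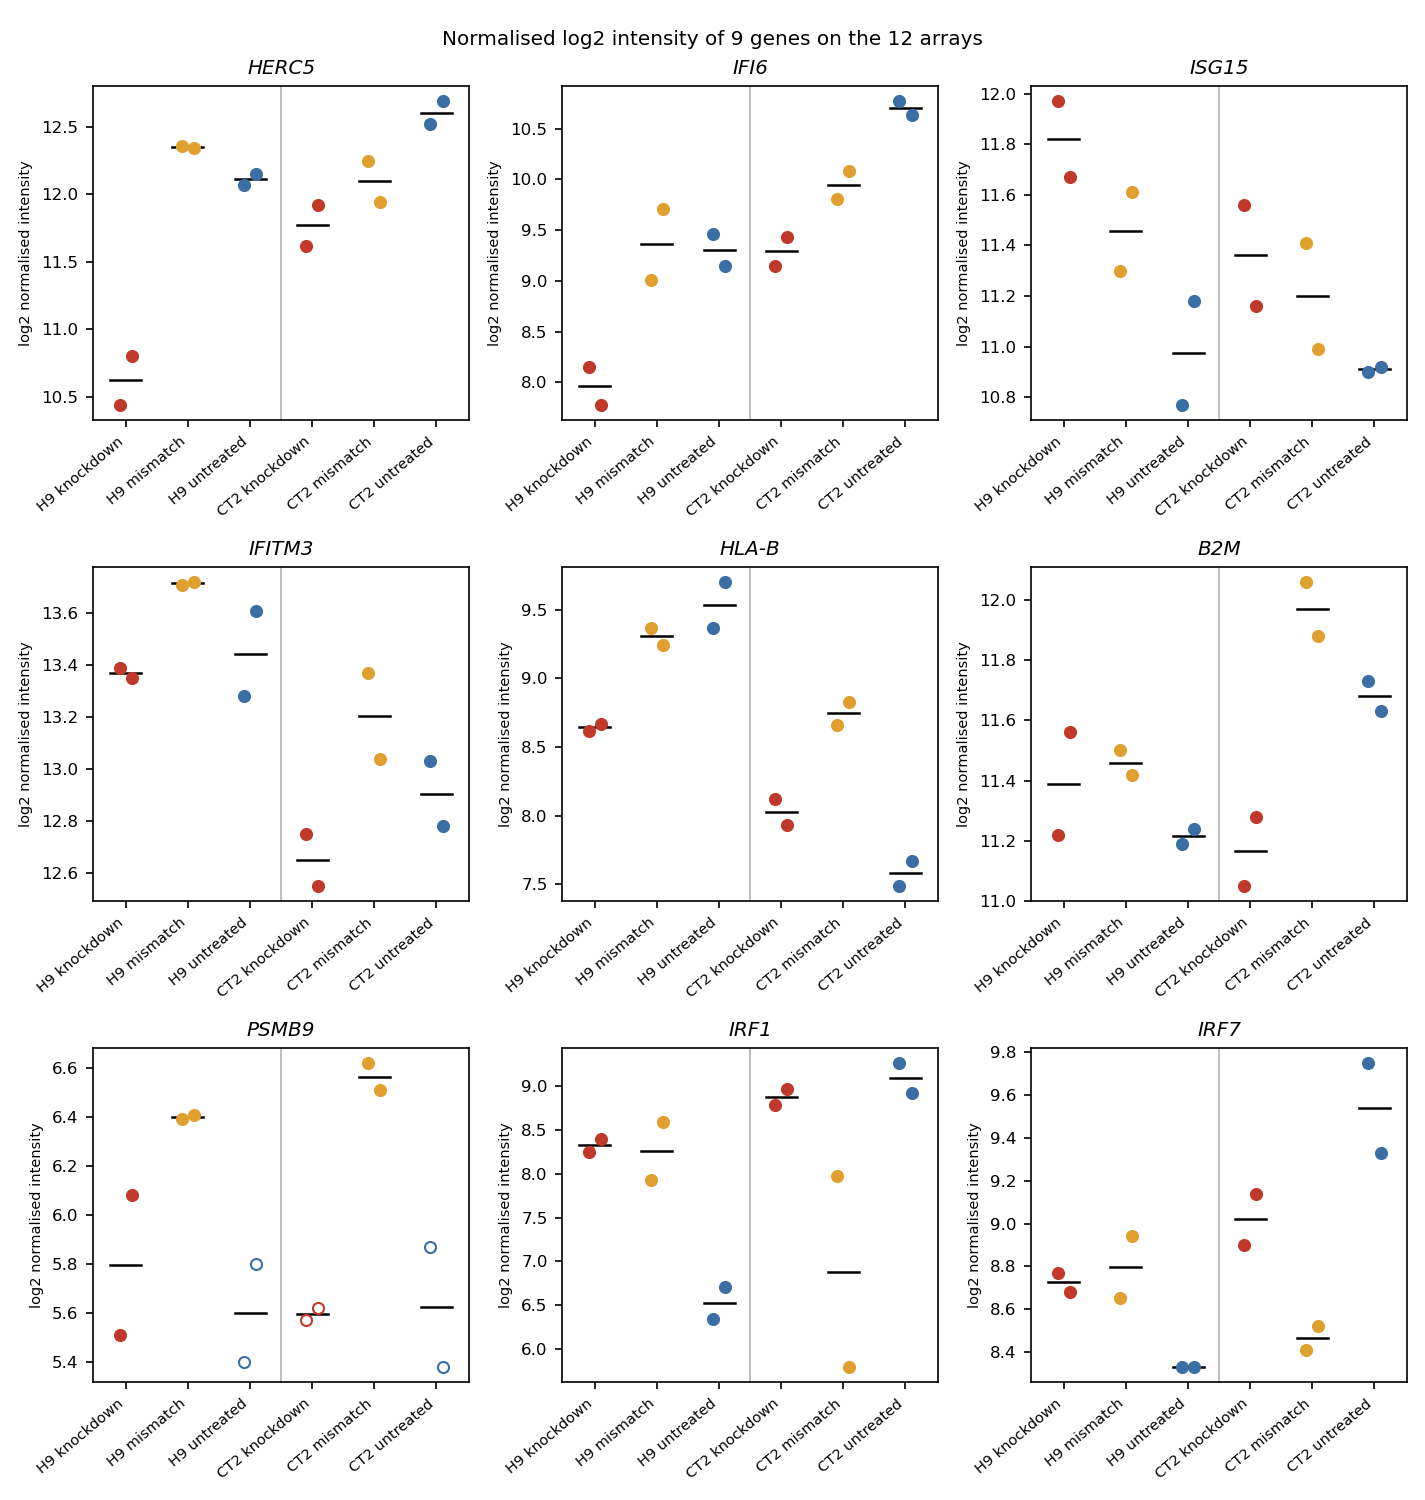
Normalised log2 intensity of 9 members on each of the 12 arrays, with H9 left of the grey line and CT2 right of it, and knockdown (red), mismatch (yellow) and untreated (blue) in each line. Points are arrays, black bars are group means of 2 arrays, and open points belong to groups in which the probe was detected on no array; each panel has its own axis that does not start at 0. HERC5 and IFI6 are lowest with the knockdown in both lines, B2M is lower with the knockdown than with the mismatch shRNA in CT2, and the CT2 mismatch arrays of IRF1 lie at 7.97 and 5.8.

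Leaving PSMB9 aside, the 6 other antigen presentation genes had negative differences between the knockdown and the mismatch shRNA, 1 of which passed, HLA-B, with a median of -0.38 against 0.014 for all genes. HLA-B read 8.62 and 8.67 in H9 knockdown, 9.37 and 9.24 in H9 mismatch, and 9.37 and 9.70 in H9 untreated. CT2 arrays of HLA-B gave 8.12 and 7.93 with the knockdown, 8.66 and 8.83 with the mismatch shRNA, and 7.49 and 7.67 untreated. The knockdown arrays lay below the mismatch arrays in each line, but in CT2 above the untreated arrays. The difference from mismatch was -0.69 ± 0.17, or 62% (limma adjusted p = 0.0232). By line it was -0.66 ± 0.24 for H9 and -0.72 ± 0.24 for CT2. It was lost without any 1 of the 4 H9 knockdown and mismatch arrays or CT2 knockdown replicate 2 (limma adjusted p up to 0.103). PSMB9 read 5.51 and 6.08 in H9 knockdown, 6.39 and 6.41 in H9 mismatch, and 5.40 and 5.80 in H9 untreated. In CT2 it read 5.57 and 5.62 with the knockdown, 6.62 and 6.51 with the mismatch shRNA, and 5.87 and 5.38 untreated. Its probe was detected on both mismatch arrays of each line and on 1 H9 knockdown array, and on none of the CT2 knockdown or untreated arrays. The fitted difference from mismatch was -0.79 ± 0.23 (limma adjusted p = 0.0466). Where a group was detected on no array, each array's lowest detected signal stands in for a dimmer probe, and on that basis PSMB9 was at least 1.5-fold lower with the knockdown as the mean of both lines. The call ended in 10 of the 12 fits that left out 1 array, all but those without an H9 untreated array (limma adjusted p up to 0.197).

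B2M, which encodes the light chain of every class I HLA molecule, read 11.22 and 11.56 in H9 knockdown, 11.50 and 11.42 in H9 mismatch, and 11.19 and 11.24 in H9 untreated. The CT2 values of B2M were 11.05 and 11.28 with the knockdown, 12.06 and 11.88 with the mismatch shRNA, and 11.73 and 11.63 untreated. In H9 the knockdown and mismatch arrays overlapped, and in CT2 the knockdown arrays were the lowest. B2M fell by 0.80 ± 0.19 in CT2 against mismatch, to 57.3% (limma adjusted p = 0.0278), while the H9 difference was -0.06 ± 0.19 (0.959). The CT2 call ended without any 1 of the CT2 knockdown or untreated arrays (limma adjusted p up to 0.143). The difference between these responses was 0.74 ± 0.27 (limma adjusted p = 0.316) and did not pass. A second B2M probe gave -0.78 in CT2 (limma adjusted p = 0.124 over all probes). TAP1, a subunit of the peptide transporter whose gene start lies 488 bases from that of PSMB9 on the other strand, gave -0.49 ± 0.17 as the mean of both lines (limma adjusted p = 0.089). HLA-C gave -0.34 ± 0.19 (limma adjusted p = 0.318), HLA-E -0.12 ± 0.16 (0.728) and PSMB8, another immunoproteasome subunit, -0.15 ± 0.25 (0.785).

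Among the 13 measured antiviral effectors 1 fell, IFITM3, and the median difference was -0.2. IFITM3 read 13.39 and 13.35 in H9 knockdown, 13.71 and 13.72 in H9 mismatch, and 13.28 and 13.61 in H9 untreated. CT2 arrays of IFITM3 gave 12.75 and 12.55 with the knockdown, 13.37 and 13.04 with the mismatch shRNA, and 13.03 and 12.78 untreated. The knockdown arrays were below the mismatch arrays in both lines and overlapped with the untreated arrays in H9. The difference from mismatch was -0.45 ± 0.12, or 73.2% (limma adjusted p = 0.0383). It was lost in 9 of the 12 fits that left out 1 array (limma adjusted p up to 0.168). IFITM1 and IFITM2, its neighbours on chromosome 11, gave 0.09 ± 0.18 and -0.22 ± 0.14, and neither passed. IFIT1, which binds viral RNA, and its partner IFIT3 gave 0.25 ± 0.20 and 0.32 ± 0.22. MX1 and MX2, dynamin-like GTPases that act on viruses, gave 0.01 ± 0.18 and 0.03 ± 0.17. Behind these means the lines had opposite signs: MX1 was at -0.47 ± 0.25 in H9 and 0.48 ± 0.25 in CT2, and MX2 at -0.46 ± 0.25 and 0.51 ± 0.25, and none of these 4 values passed, nor did the differences between the lines (limma adjusted p = 0.32 for MX1 and 0.305 for MX2). EIF2AK2 gave -0.20 ± 0.16. The 3 RNA sensors lay between -0.16 for IFIH1 and 0.43 for DDX60, a helicase of the RIG-I pathway, and none passed. PARP14, an ADP-ribosyltransferase, gave -0.46 ± 0.29 (limma adjusted p = 0.397), and PARP9, its partner, 0.27 ± 0.20.

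None of the 3 measured transcription factors passed as the mean of both lines, and all 3 differences were positive. IRF1 gave 1.02 ± 0.35 as the mean of both lines (limma adjusted p = 0.0949), IRF7, which drives type I interferon genes, 0.25 ± 0.17 (0.465), and IRF9 0.02 ± 0.15 (0.965). IRF1 read 8.25 and 8.40 in H9 knockdown, 7.93 and 8.59 in H9 mismatch, and 6.34 and 6.71 in H9 untreated. In CT2 it read 8.78 and 8.96 with the knockdown, 7.97 and 5.80 with the mismatch shRNA, and 9.26 and 8.92 untreated. The H9 untreated arrays and CT2 mismatch replicate 2 were low, and all other arrays were at 7.93 or above. The IRF1 probe was detected on 1 of the 2 CT2 mismatch arrays, so each fitted difference from that group includes a background reading. IRF1 passed in CT2, where it was higher with the knockdown than with the mismatch shRNA by 1.98 ± 0.49 (limma adjusted p = 0.0357), but without CT2 mismatch replicate 2 the difference was 0.9 and no longer passed (limma adjusted p = 0.174). It was lost in 7 of the 12 fits that left out 1 array (up to 0.252).

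Within H9, 2 of 34 members fell with the knockdown against mismatch, HERC5 and IFI6, and 0 rose, 5.88% against 2.55% of all genes (0.989% higher and 1.56% lower). Within CT2, 1 rose, IRF1, and 1 fell, B2M, again 5.88%, against 4.57% of all genes (2.77% higher and 1.81% lower). The summed normalised intensity of 4 detected markers out of 10 of endothelial cells, with PECAM1, CDH5, VWF, ERG, ESAM and EMCN not detected, was 586 to 606 in H9 knockdown, 2624 to 3243 in H9 mismatch and 2896 to 2941 in H9 untreated. In CT2 it was 895 to 1109 with the knockdown, 1003 to 1020 with the mismatch shRNA and 1313 to 1546 untreated. Its part in the H9 results was not tested. Without the 2 arrays that stood apart, 11 of 34 members were called in the mean of both lines, 1 higher and 10 lower, or 32.4% against 12.2% of all genes (5.48% higher and 6.76% lower). The 10 that were lower were HERC5, IFI6, IFITM3, PSMB9 and HLA-B, joined by BST2 (-0.96 ± 0.28), PARP14 (-0.87 ± 0.18), IFI35 (-0.86 ± 0.22), TAP1 (-0.59 ± 0.15) and B2M (-0.48 ± 0.14). BST2 encodes tetherin, which holds budding virus at the cell surface. The member that was higher was USP18 (1 ± 0.24). The count of 11 includes PSMB9, whose difference the detection filter partly set. In that fit 3 antigen presentation genes besides PSMB9 passed, TAP1, B2M and HLA-B, all lower.

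**Figure D4:**
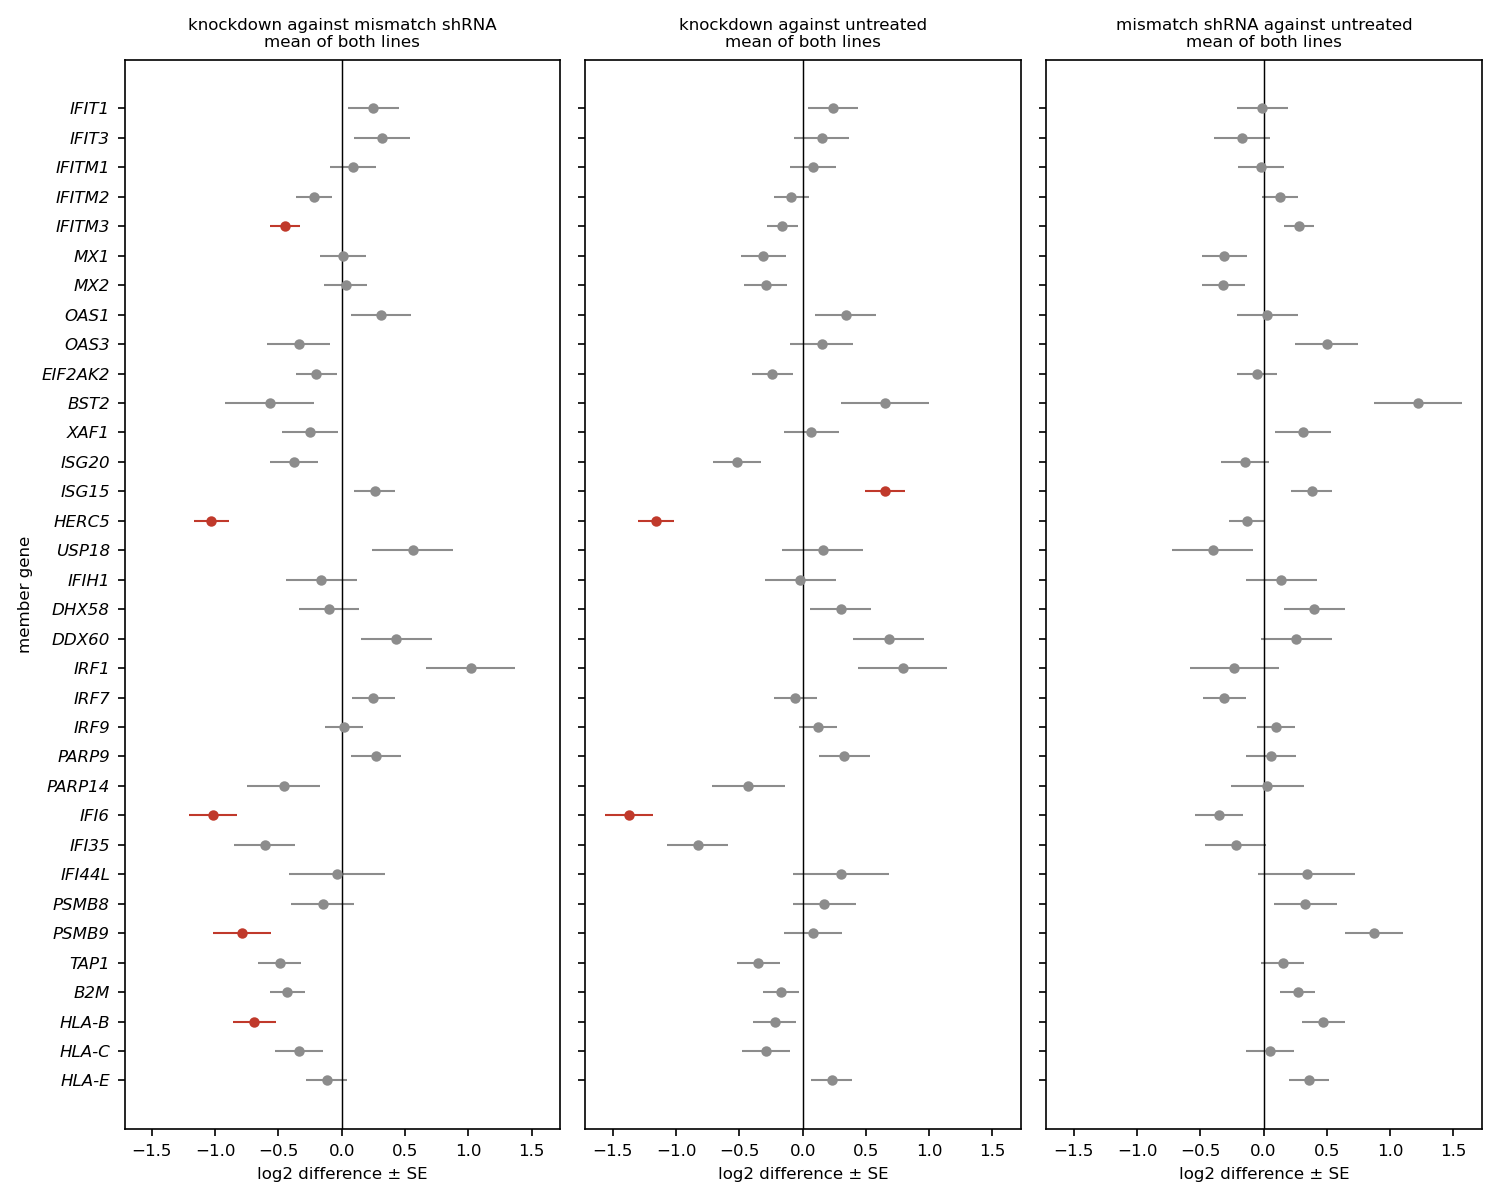
Log2 difference of each measured member in 3 comparisons, each the mean of both lines. From left to right the panels give the knockdown against mismatch shRNA, the knockdown against untreated, and the mismatch shRNA against untreated; points are differences, bars are standard errors, and red marks an adjusted p under 0.05. In the left panel 5 members are red and negative, in the middle panel HERC5 and IFI6 are red and negative and ISG15 red and positive, and in the right panel none is red.

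The second question was what the hairpin control itself did. Against untreated cells the mismatch shRNA changed 0 of the 34 members as the mean of both lines by limma, against 1.19% of all genes. At an unadjusted p under 0.05 there were 6 members, or 5 without PSMB9. The share of all genes at that unadjusted threshold was not counted, here or below, so such counts are a description only. Leaving PSMB9 aside, the 6 other antigen presentation genes were positive here, with a median of 0.3 against 0.013 for all genes, and 2 of them had an unadjusted p under 0.05. PSMB9, detected on no untreated array, was at least 1.41-fold higher with the mismatch shRNA (limma adjusted p = 0.0674), a difference that the detection filter partly set. HLA-B gave 0.47 ± 0.17 (limma adjusted p = 0.185) and HLA-E 0.36 ± 0.16 (0.29). This comparison shares the mismatch arrays with the first one. BST2 gave 1.22 ± 0.35 (limma adjusted p = 0.106), DHX58, an RNA sensor without a signalling domain, 0.40 ± 0.24 (0.434), and ISG15 0.38 ± 0.16 (0.253). BST2 read 10.21 and 8.96 in H9 knockdown, 9.75 and 10.24 in H9 mismatch, and 8.31 and 9.43 in H9 untreated. The CT2 values of BST2 were 10.13 and 10.39 with the knockdown, 11.76 and 10.23 with the mismatch shRNA, and 9.91 and 9.45 untreated. The mismatch arrays were above the untreated arrays in both lines, and replicates lay far apart. Without the 2 arrays that stood apart BST2 was the 1 member called, at 1.34 ± 0.30 (limma adjusted p = 0.0308), where 4.56% of all genes were.

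Within H9 the mismatch shRNA changed 0 of 34 members by limma, where 0.0502% of all genes were called. At an unadjusted p under 0.05 there were 4 members, or 3 without PSMB9, whose difference the detection filter partly set. IRF1 was among the 3, at 1.74 ± 0.49 (limma adjusted p = 0.388). In CT2 the mismatch shRNA changed 3 of 34 members, or 8.82%, against 11% of all genes (4.62% higher and 6.4% lower): HLA-B rose, and IRF1 and IRF7 fell. The summed normalised intensity of the 7 detected leukocyte markers was 1415 to 2392 in CT2 mismatch and 3472 to 3646 in CT2 untreated, against 1382 to 1919 in H9 mismatch and 1505 to 1536 in H9 untreated, and its part in these results was not tested. HLA-B was at 224% of the untreated level in CT2 (log2 difference 1.16 ± 0.24, limma adjusted p = 0.00815), and its mismatch and untreated arrays did not overlap. In H9 the same difference was -0.23 ± 0.24 (limma adjusted p = 0.758), and the lines differed by -1.39 ± 0.34 (0.0264, H9 minus CT2). IRF1 was at 21.7% of the untreated level in CT2 (-2.2 ± 0.49, limma adjusted p = 0.0122) and the lines differed by 3.95 ± 0.70 (0.0115). Both IRF1 values include a CT2 mismatch array on which its probe was not detected, so their size is uncertain. Without CT2 mismatch replicate 2 the CT2 difference was -1.12 (0.061). With both arrays that stood apart left out, IRF1 gave -1.13 ± 0.31 in CT2 (limma adjusted p = 0.0223) and 1.56 ± 0.31 in H9 (0.0357), opposite signs that differed by 2.69 ± 0.44 (0.00213). IRF7 read 8.77 and 8.68 in H9 knockdown, 8.65 and 8.94 in H9 mismatch, and 8.33 and 8.33 in H9 untreated. CT2 arrays of IRF7 gave 8.90 and 9.14 with the knockdown, 8.41 and 8.52 with the mismatch shRNA, and 9.75 and 9.33 untreated. The mismatch arrays of IRF7 were above the untreated arrays in H9 and below them in CT2. IRF7 fell by 1.08 ± 0.25 in CT2 (limma adjusted p = 0.0121), and the lines differed by 1.55 ± 0.35 (0.0188). A second IRF7 probe gave 0.91 in CT2, the opposite sign (limma adjusted p = 0.233 over all probes), and the mean of both probes gave -0.08 (0.885), so the direction of IRF7 depends on the probe. Without CT2 untreated replicate 1 the CT2 calls ended for HLA-B (limma adjusted p = 0.0979), IRF1 (0.123) and IRF7 (0.165), and without replicate 2 they ended too (0.0567, 0.0702 and 0.0501). Without CT2 mismatch replicate 1, 10 members passed in CT2, or 29.4%, where 20.3% of all genes did. In all, the mismatch effect differed between the lines for 3 of 34 members, against 6.63% of all genes. Over the 12 fits that left out 1 array these calls were lost in 2 for IRF1, 3 for IRF7 and 6 for HLA-B, and without CT2 mismatch replicate 1 the count was 11, or 32.4%, where 21.5% of all genes were called.

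**Figure D5:**
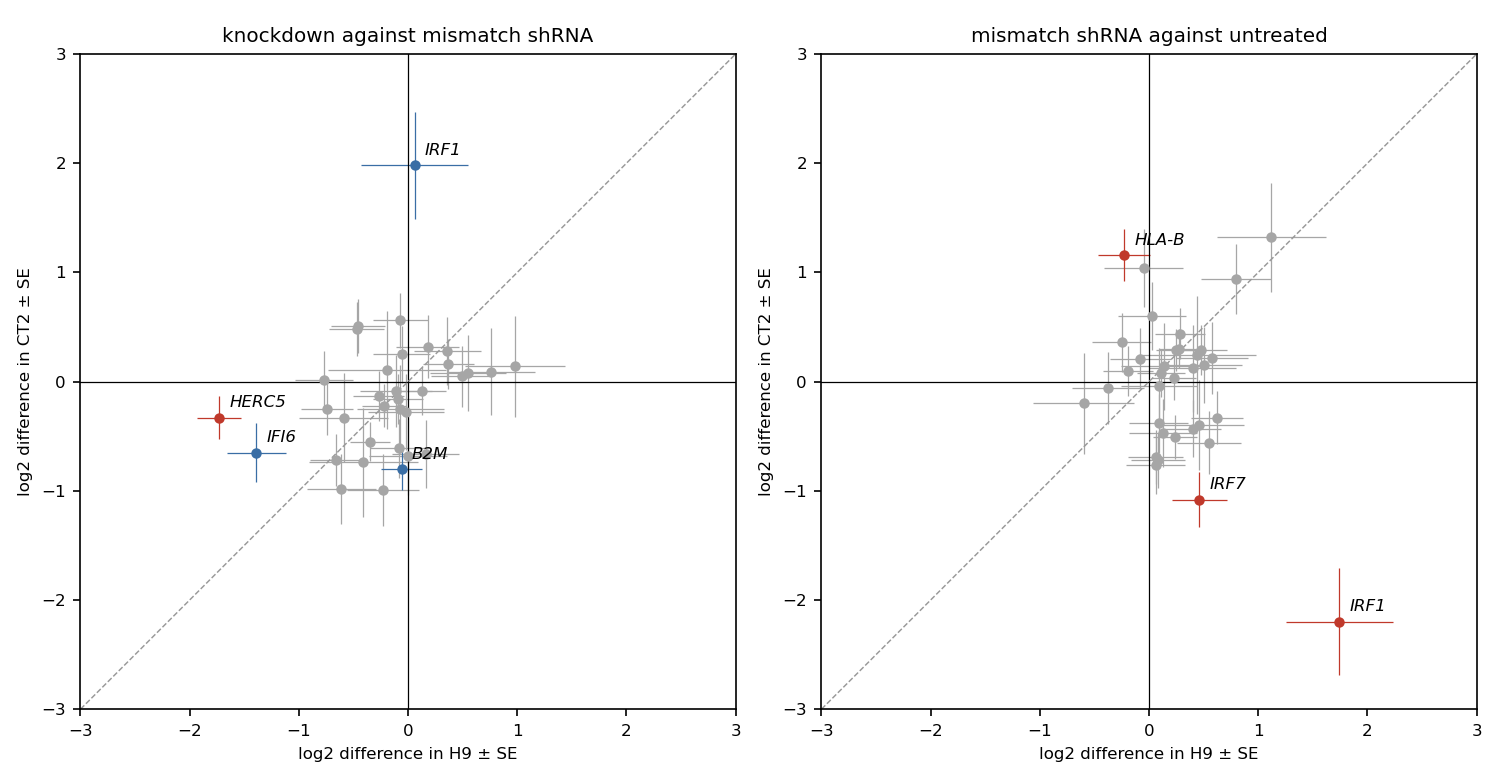
Log2 difference of the 34 measured members in H9 (horizontal axis) against that in CT2 (vertical axis), for the knockdown against mismatch shRNA at left and the mismatch shRNA against untreated at right. Points are members with standard errors, the dashed line marks equal differences, red marks members whose lines differed at an adjusted p under 0.05 and blue those called in 1 line only. HERC5 lies at -1.73 in H9 and -0.33 in CT2 at left, and IRF1 lies at 1.74 in H9 and -2.2 in CT2 at right.

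The third comparison set the knockdown against untreated cells, which shares the knockdown arrays with the first and the untreated arrays with the second. As the mean of both lines 1 of 34 members rose, ISG15, and 2 fell, HERC5 and IFI6, 8.82% against 3.43% of all genes (1.57% higher and 1.86% lower). ISG15 was at 157% of the untreated level (0.65 ± 0.16, limma adjusted p = 0.0355; lost in 8 of the 12 fits that left out 1 array, up to 0.187), with 0.85 ± 0.23 in H9 and 0.45 ± 0.23 in CT2. HERC5 was at 44.7% (-1.16 ± 0.14, limma adjusted p = 1.56e-04) and IFI6 at 38.7% (-1.37 ± 0.19, 5.52e-04). HLA-B gave -0.22 ± 0.17 against untreated (limma adjusted p = 0.584), IFITM3 -0.16 ± 0.12 (0.566) and B2M -0.17 ± 0.14 (0.61). None of the antigen presentation genes passed against untreated cells by limma. Leaving PSMB9 aside, 2 were positive and 4 negative, 0 had an unadjusted p under 0.05, and their median was -0.2. For PSMB9 no difference is given, since its probe was detected on 1 H9 knockdown array and on no other array of these groups. The second IFI6 probe gave -0.34 (limma adjusted p = 0.519 over all probes). By line HLA-B was at -0.89 ± 0.24 in H9 (limma adjusted p = 0.0604) and 0.45 ± 0.24 in CT2 (0.672).

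By line, 2 of 34 members fell in H9 against untreated, HERC5 (-1.49 ± 0.20) and IFI6 (-1.33 ± 0.27), 5.88% against 3.09% of all genes (1.64% higher and 1.45% lower). In CT2 1 of 34 fell, IFI6 (-1.41 ± 0.27, limma adjusted p = 0.0386), 2.94% against 0.315% (0.086% higher and 0.229% lower). The CT2 call ended without any 1 of the CT2 knockdown or untreated arrays (up to 0.525), and the H9 call of IFI6 without either H9 knockdown array or H9 untreated replicate 1 (up to 0.125). With the mean of all detected IFI6 probes neither call was kept, at -0.75 in H9 (limma adjusted p = 0.101) and -0.96 in CT2 (0.11). HERC5 gave -0.83 ± 0.20 in CT2 (limma adjusted p = 0.0898). Without the 2 arrays that stood apart, 8 members passed in the mean of both lines, 23.5% against 6.81% of all genes (3.21% higher and 3.59% lower). ISG15 (0.55 ± 0.15), DDX60 (1.01 ± 0.26) and IRF1 (0.7 ± 0.20) were higher, and HERC5 (-1.19 ± 0.14), IFI6 (-1.31 ± 0.19), IFI35 (-0.76 ± 0.22), PARP14 (-0.62 ± 0.18) and TAP1 (-0.49 ± 0.15) were lower. HERC5 then passed in CT2 as well, at -0.84 ± 0.17 (limma adjusted p = 0.00777). In H9, 5 members passed without these arrays, 14.7% against 5.01% of all genes: HERC5 and IFI6, joined by DDX60 (1.8 ± 0.40, limma adjusted p = 0.00714), IRF1 (1.62 ± 0.31, 0.0022) and HLA-B (-1.07 ± 0.28, 0.0242).

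The lines differed before any treatment. In untreated H9 against untreated CT2 cells 3 of 34 members were higher and 6 lower, 26.5% against 14.7% of all genes (5.99% higher and 8.74% lower). The class I heavy chains HLA-B and HLA-C were higher in H9, HLA-B at 388% of the CT2 level (1.95 ± 0.24, limma adjusted p = 1.27e-04) and HLA-C at 201% (1.01 ± 0.27, 0.019). HLA-C read 8.71 and 8.94 in H9 untreated against 8.07 and 7.56 in CT2 untreated. HLA-B and HLA-C were each read by 1 detected probe, and whether that probe binds alike in both lines was not tested. IFITM3 was also higher in H9, by 0.54 ± 0.18 (limma adjusted p = 0.0467, lost in 9 of the 12 fits that left out 1 array), while its neighbour IFITM1 was lower (-1.05 ± 0.26, 0.0156). IRF1 was at 16.9% of the CT2 level in H9 (-2.57 ± 0.49, limma adjusted p = 0.00398) and IRF7 at 43.1% (-1.21 ± 0.25, 0.00483), the second again with the other probe at the opposite sign (0.82). IFI6 (-1.40 ± 0.27), MX1 (-1.11 ± 0.25) and TAP1 (-1.03 ± 0.24) were lower in H9 too. The second IFI6 probe gave -0.56 and did not pass (limma adjusted p = 0.254 over all probes). TAP1 read 9.73 and 10.27 in H9 untreated, against 11.11 and 10.95 in CT2 untreated, and the groups did not overlap. MX1 read 9.11 and 9.35 in H9 untreated, against 10.39 and 10.28 in CT2 untreated. The summed normalised intensity of the 7 detected leukocyte markers was 1505 to 1536 in H9 untreated and 3472 to 3646 in CT2 untreated, and 1362 to 2392 in the other groups, and its part in these results was not tested. For 9 detected fibroblast markers the sum was 33793 to 34850 in H9 untreated and 24216 to 25183 in CT2 untreated. For 7 detected trophoblast and amnion markers it was 1599 to 1701 in H9 untreated and 1941 to 1968 in CT2 untreated. The part of these sums was not tested either. Without CT2 untreated replicate 1 only HLA-B passed, or 2.94% of members against 2.72% of all genes. Without CT2 untreated replicate 2 only IRF1, IRF7, IFI6 and HLA-B did, or 11.8% against 4.26%. Without H9 untreated replicate 1 the calls of IFITM1, MX1 and TAP1 ended, without H9 untreated replicate 2 those of HLA-C and IFITM3 ended, and without both arrays that stood apart the same 9 members passed, where 17.2% of all genes did.

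Of 96 further genes, listed by role, 68 were measured. With the knockdown against mismatch, as the mean of both lines, 1 of the 68 rose and 2 fell, or 4.41%, against 6.57% of all genes. SP110, a nuclear body protein induced by interferon, rose by 0.90 ± 0.18 to 187% (limma adjusted p = 0.00672, and 0.0526 without H9 mismatch replicate 1). TRIM22, an antiviral ubiquitin ligase, fell by 1.02 ± 0.21 to 49.3% (limma adjusted p = 0.00764, and 0.0564 without H9 mismatch replicate 1), and PSME1, a subunit of the proteasome activator PA28, fell by 0.50 ± 0.11 to 70.7% (0.0127, lost in 3 of the 12 fits that left out 1 array, up to 0.0746). TRIM22 read 8.22 and 8.58 in H9 knockdown, 10.22 and 9.29 in H9 mismatch, and 10.41 and 10.22 in H9 untreated. In CT2 it read 9.27 and 9.22 with the knockdown, 9.61 and 10.25 with the mismatch shRNA, and 9.63 and 9.80 untreated. Its knockdown arrays were lowest in each line. With the mean of all detected probes SP110 gave 0.54 (limma adjusted p = 0.0626) and PSME1 -0.28 (0.322), so neither passed. PSME1 was also lost under median scaling (-0.34, limma adjusted p = 0.322), while TRIM22 kept its call under both alternatives. Of 10 interferon genes only IFNW1 had a detected probe, and it did not pass. Of 11 receptor and JAK-STAT genes 10 were measured, and by limma 0 passed against mismatch, with 1 at an unadjusted p under 0.05. Of 15 measured nucleic acid sensing genes 0 passed by limma, with 2 at an unadjusted p under 0.05. Of 8 negative regulators 0 passed by limma, and 0 had an unadjusted p under 0.05. STING1 was not measured here. With the mismatch shRNA against untreated 1 of 68 was called, or 1.47% against 1.19% of all genes: CGAS, the cytosolic DNA sensor, at least 1.14-fold lower (-1.22 ± 0.22 as fitted, limma adjusted p = 0.0144, lost in 5 of the 12 fits that left out 1 array, up to 0.0945). The CGAS probe was detected on 3 arrays, all untreated, so it met the detection filter through the group where it is high, and its calls against untreated cells are a description only. Against untreated cells with the knockdown, IL10RB (0.88 ± 0.23), a subunit of the receptor of interferon lambda, and IFI16 (at least 2.05-fold), a DNA sensor, were higher, and CGAS (at least 1.17-fold) and TRIM22 (-1.19 ± 0.21) lower, 4 of 68 genes or 5.88%, against 3.43% of all genes. IFI16 was detected on 8 arrays, among them all 4 knockdown arrays, while an untreated group had no detected array. The count of 4 includes CGAS and IFI16, so its share is a description only.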

How the data were processed

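RNA was measured on 12 Illumina bead arrays, 2 for each of the 6 groups. The deposited table pairs, per the file headers, an unnormalised bead intensity with a detection p-value in each array's columns. GenomeStudio is named in the submitters' processing notes, without a version. A second table, used as an alternative, holds the processed intensity values that the authors deposited. The 2 lines stand in separate blocks, with 47320 probes for H9 and 47315 for CT2, joined by probe identifier to 47314. Of these, 30108 had 1 gene symbol in the platform annotation, 8 had several and 17198 had none; probes with several or none were not named.

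Background was corrected by normexp with an offset of 16, using negative control values inferred from the detection p-values. Intensities were then log2 transformed, and the arrays were quantile normalised together on that scale (limma 3.58.1, R 4.3.3). The detection filter (p under 0.05 on 2 or more arrays) passed 25905 probes, and the brightest one represented each of 13951 genes. One linear model with a mean per group gave all 12 comparisons, with moderated variances (trend and robust), and p-values were adjusted by Benjamini-Hochberg over all genes tested, called under 0.05 whatever the fold. The model was tested on simulated data. No label gives a beadchip position or scan date, so no batch was fitted. Replicate numbers were not treated as pairs: over 15 pairs of groups, deviations of arrays with the same number correlated between -0.374 and 0.394, above 0.1 in 4.

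The 42 members, the lists of markers and pathway genes and the 2 arrays left out together were chosen with earlier results of these data known. Genes are named if they are members called in any of the 12 comparisons, the member with the smallest p of each role against mismatch and of mismatch against untreated, the 5 brightest and 3 dimmest probes (a choice of names only, since probes share no scale), members with no detected probe, pathway genes called in the first 2 of these comparisons, or JMJD1C. Other members and pathway genes given as context were chosen after their values were seen. Alternatives covered background correction, scaling, the detection filter, the choice of probe, the variance model and each array left out in turn. Promoters are from RefSeq on GRCh38.p14, and motif matches were counted in windows of 300 bases.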

Additional observations from a re-analysis of the deposited data

Results flagged for a closer look

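HERC5 differed between the lines in its response to the knockdown against mismatch, at -1.4 on the log2 scale for H9 minus CT2, by a test of the difference itself. That call was lost under median scaling, without trend and robust steps and with the replicate block. The effect of the mismatch shRNA against untreated differed between the lines for IRF1 (3.95), IRF7 (1.55) and HLA-B (-1.39), again as H9 minus CT2 and by a test of the difference. These are 8.82% of the members, against 6.63% of all genes, and under median scaling only IRF1 kept its call. IRF1 and IRF7 had positive values in H9 and negative values in CT2, and HLA-B the opposite. The IRF1 value includes a CT2 mismatch array on which its probe was not detected. IRF7 carries a second probe that gave -1.31 for the same difference, which did not pass (limma adjusted p = 0.255 over all probes).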

How the results depend on the processing

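Of 38 single-gene results, 8 kept their direction and call under every alternative run: HERC5 and IFI6 with the knockdown against mismatch and against untreated as the mean of both lines, HERC5 in H9 against either, HLA-B between the untreated lines, and JMJD1C as the mean of both lines. Over 884 alternatives, 712 left the call in place, 172 ended it and 0 turned its direction, and the cause was not tested. The share of all genes called moved between settings too. For the knockdown against mismatch as the mean of both lines it was 6.57% in the main fit and 6.62% under median scaling. It was 4.03% without the detection filter and 4.99% with the replicate block. In H9 2.55% became 2.35% with the mean of all probes and 5.89% with array weights. In CT2 4.57% became 4.09% under median scaling, 1.35% with array weights and 2.44% without trend and robust steps. Counts of members called moved as follows. With the knockdown against mismatch as the mean of both lines, 5 became 3 under median scaling, without the detection filter or with the replicate block, 11 without the 2 arrays that stood apart, and 2 to 8 when 1 array was left out, the highest without CT2 mismatch replicate 2. In H9 the count of 2 became 1 with the mean of all probes, 4 with array weights and 4 without the 2 arrays, and 1 to 2 with 1 array left out. In CT2 the count of 2 became 1 under median scaling or array weights, 0 without the trend and robust steps, with the replicate block or with the line fitted alone, 4 without the 2 arrays, and 0 to 3 with 1 array left out. For the mismatch shRNA against untreated, 0 became 1 without the 2 arrays as the mean of both lines (0 to 1 with 1 array left out), 1 in H9 without the 2 arrays or with the line alone (0 to 1), and in CT2 3 became 5 without the 2 arrays (0 to 10, the highest without CT2 mismatch replicate 1). For the knockdown against untreated, 3 became 8 without the 2 arrays (2 to 5 with 1 array left out). In H9 the 2 became 4 with the authors' deposited values or array weights and 5 without the 2 arrays or with the line alone (1 to 5). In CT2 the 1 became 0 with the mean of probes, without trend and robust steps or with the replicate block, and 3 with array weights or without the 2 arrays (0 to 2). The line difference of the knockdown effect went to 0 under median scaling, without trend and robust steps and with the replicate block (0 to 3), that of the mismatch effect to 1 under median scaling (0 to 11), and the 9 of the untreated lines to between 1 and 9 with 1 array left out. For the knockdown against untreated in H9 the share of all genes called went from 3.09% to 3.39% with the authors' deposited values. It was 3.58% with array weights and 4.61% with the line alone. In CT2 that share was 0.315%, and 2.36% with array weights and 0.179% with the replicate block. For the line difference of the mismatch effect it went from 6.63% to 5.03% under median scaling. With median scaling, the median over all genes for the knockdown against mismatch was 0.116, against 0.014 with quantile normalisation. For untreated H9 against CT2 it was 0.125, against -0.011. With 2 arrays per group the precision is limited by their number, and probes near background give bounds only.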
